A study of Mus musculus with 9 samples.

Results

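The cell cycle genes described here are 35 named genes of the entry into and passage through cell division, found by symbol among the 21870 genes of the deposited mRNA table. All 35 were in the table. They cover the D, E, A and B cyclins, the cyclin-dependent kinases, kinase inhibitors, the E2F and pocket proteins, the MCM helicase, origin licensing, the replication fork and nucleotide supply, and mitosis. Liver RNA was measured in wild-type C57 BL6 mice 8 weeks old, 20 g in mean weight, with 3 libraries a group. The dmPGE2+APAP group was injected intraperitoneally with 300 μg/kg of dmPGE2, a stable prostaglandin E2 analogue, 1 h before 500 mg/kg of acetaminophen (APAP, a painkiller that injures the liver in overdose). The APAP group received the same dose of APAP alone, and the control group received saline. All livers were collected at 6 h, the single time point.

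Growth signals raise the D cyclins, which bind CDK4 and CDK6 and phosphorylate the retinoblastoma (pocket) proteins. This frees E2F factors to switch on the genes of DNA replication, among them the MCM helicase that unwinds origins, and later the A and B cyclins that drive mitosis. Hepatocytes of an adult liver are mostly quiescent and can re-enter the cycle after injury, and p21, encoded by Cdkn1a, holds cells in G1 by blocking cyclin-dependent kinases.

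Values are deposited FPKM (fragments scaled to transcript length and library size), given per library in replicate order. The sum over all genes of a library was 371958.2 to 393937.6 FPKM, and the read depth behind it is not known. The libraries were all hepatocyte-rich, with Alb at 5.6% to 8.33% of each total. Treated libraries lay apart from controls on the first principal component of the tested genes (51.2% of variance), and control replicate 3 stood apart from the other controls on the second (12.6%), at 32.71 against -15.72 and -16.24. In whole liver, fewer cells of a type and less RNA per cell cannot be told apart.

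At 6 h the A and B cyclins and the genes of mitosis were at low levels in all 3 groups. Ccna2 (cyclin A2, for S phase and mitotic entry), Ccnb1 (a mitotic cyclin), Cdc6 (which loads the MCM helicase), Mki67 (the proliferation antigen Ki-67) and Cdc20 (an activator of the anaphase-promoting complex) were below 0.5 FPKM in every library, which is 5 of the 35 genes. Another 2, Cdk1 (the mitotic kinase) and Top2a (which untangles replicated DNA), exceeded 0.5 FPKM in 1 library each and had group means below it, so 7 genes were below 0.5 FPKM by mean in every group. Cdk1 was at 0.164, 0.932 and 0.166 FPKM in dmPGE2+APAP livers, 0.261, 0.136 and 0.249 in APAP livers, against 0.244, 0.217 and 0.313 in controls, so 1 dmPGE2+APAP library stood above all others. Mki67 was at 0.192, 0.136 and 0.118 FPKM in dmPGE2+APAP livers, 0.159, 0.0758 and 0.207 in APAP livers, against 0.145, 0.135 and 0.198 in controls, and the groups overlapped. Top2a was at 0.345, 0.340 and 0.299 FPKM in dmPGE2+APAP livers, 0.453, 0.266 and 0.293 in APAP livers, against 0.491, 0.133 and 0.608 in controls. The spread of Top2a among the controls covered every treated library.

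Ccnb2, the other mitotic B cyclin, reached 0.5 FPKM in 2 libraries, 1 in each treated group, and completes the 8 genes left untested. It was at 0.720, 0.381 and 0.451 FPKM in dmPGE2+APAP livers, 0.339, 0.389 and 1.07 in APAP livers, against 0.0802, 0.149 and 0.276 in controls. Every treated library was above every control. With the filter on low values removed, Ccnb2 had a log2 difference of 1.38 (SE 0.417) for APAP against control and 1.33 (SE 0.417) for dmPGE2+APAP against control, and neither passed in limma (adjusted p of 0.0597 and 0.0856). None of the other 7 untested genes passed in any of the 3 comparisons without the filter. Their lowest unadjusted p values were 0.0413 for Ccna2, 0.0439 for Ccnb1 and 0.0495 for Cdc6, all for dmPGE2+APAP against control (limma adjusted p of 0.18, 0.187 and 0.2). Ccna2 was at 0.255, 0.191 and 0.223 FPKM in dmPGE2+APAP livers, 0.200, 0.0972 and 0.283 in APAP livers, against 0.0617, 0.117 and 0.189 in controls. Ccnb1 was at 0.130, 0.151 and 0.205, then 0.0801, 0.0566 and 0.260, against 0.0123, 0.104 and 0.0734. For both, dmPGE2+APAP libraries were above all controls, and APAP libraries overlapped with them. Ccna2 overlaps Exosc9 on the opposite strand by 863 bases. The summed level of Ccna2, Ccnb1 and Ccnb2 was 0.723 to 1.105 FPKM in dmPGE2+APAP livers, 0.543 to 1.61 in APAP livers, against 0.154 to 0.539 in controls. Every treated library was above every control in this sum, APAP replicate 2 only barely. The summed level of Ccna2, Ccnb1, Ccnb2, Cdk1, Mki67, Top2a and Cdc20 was 1.93 ± 0.341 FPKM in dmPGE2+APAP livers, 1.71 ± 0.701 in APAP livers, against 1.32 ± 0.514 in controls (values after ± are SD over 3 libraries, also below).

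**Figure D1:**
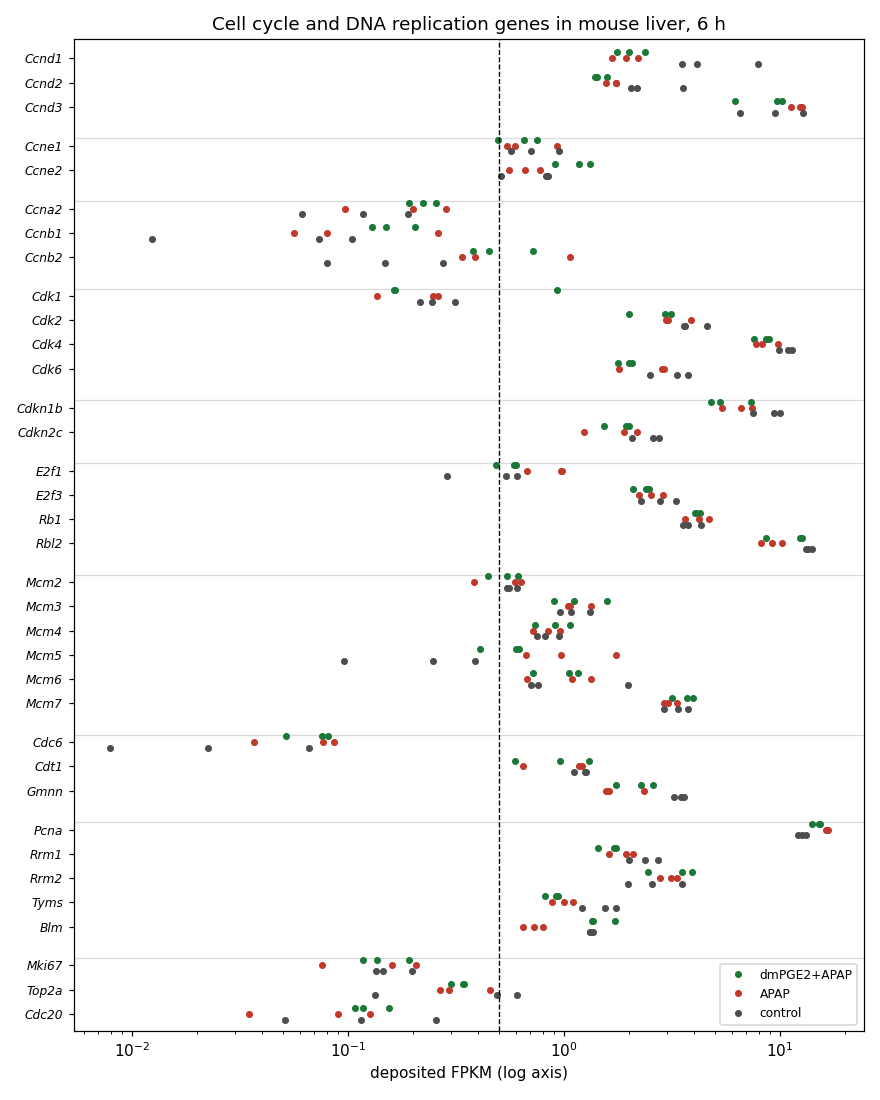
Deposited FPKM of the 35 genes on a log axis, 1 point per library, grouped by role from the D cyclins at the top to mitosis at the bottom, with the 0.5 FPKM line dashed. The A and B cyclins, Cdk1, Cdc6 and the mitosis genes lie mostly left of the line in all 3 groups, and Pcna, Ccnd3, Rbl2 and Cdk4 lie farthest to the right.

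The other 27 genes reached 0.5 FPKM in at least 3 libraries and were tested. Of the 35, 23 were at 0.5 FPKM or more in every library and 16 at 1 FPKM or more. Pcna, the sliding clamp of the replication fork, was at 14.9 ± 0.688 FPKM in dmPGE2+APAP livers, 16.5 ± 0.192 in APAP livers, against 12.7 ± 0.554 in controls. With it, Rbl2 (the pocket protein p130 of quiescent cells), Ccnd3 (cyclin D3) and Cdk4 were the genes at 5 FPKM or more in every library. In controls Rbl2 was above Pcna in every library, at 13.6 ± 0.424 FPKM, Cdk4 at 10.8 ± 0.726 and Ccnd3 at 9.63 ± 3.17, and the last 2 overlapped.

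The first comparison, APAP livers against controls, asks how these genes responded to the overdose. Of the 27 genes tested, 6 passed in limma (adjusted p under 0.05 over all 11557 genes tested), 3 higher (Mcm5, E2f1 and Pcna) and 3 lower (Ccnd1, Gmnn and Blm) in APAP livers. Among all genes tested 20.9% passed, 11.2% higher and 9.73% lower, so the share of these genes (22.2%) was near that of all genes. Their median log2 fold change was -0.0031, against -0.0232 for all genes tested. The rescaling of libraries moved the log2 difference of this comparison by 0.12. On deposited FPKM without it, 7 of the 27 passed, 2 higher and 5 lower, and over all genes 974 passed as higher and 2107 as lower, against 1291 and 1124 with it. The unadjusted p was under 0.05 for 9 of the 27 (35.6% of all genes tested), and the groups did not overlap for 9 (39.1% of all).

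Among the D cyclins, which couple growth signals to the cycle, Ccnd1 (cyclin D1, GRCm38 chromosome 7, from 144929931 to 144939925) was lower in treated livers. It was at 2.0, 2.37 and 1.76 FPKM in dmPGE2+APAP livers, 2.19, 1.68 and 1.94 in APAP livers, against 3.51, 4.13 and 7.93 in controls. Every treated library lay below every control, and control replicate 3 was the highest. The fold was 0.442 for APAP against control (log2 -1.18, SE 0.25, limma adjusted p = 0.0112), and the log2 value was -0.86 without control replicate 3. The gene overlaps LTO1, a gene of the opposite strand at 3.14 FPKM over the 9 libraries, by 1771 bases. LTO1 itself had a log2 difference of -0.56 for APAP against control, in the same direction as Ccnd1. The libraries keep the strand, but whether the quantification used it is not given in the sources used here, so the Ccnd1 values are uncertain to that extent.

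Ccnd2 (cyclin D2) had the same order, at 1.75, 1.57 and 1.74 FPKM in APAP livers, against 2.04, 2.17 and 3.56 in controls, but did not pass (log2 -0.44, adjusted p = 0.116). Ccnd3 was at 12.4, 11.3 and 12.7 FPKM in APAP livers, against 12.9, 6.53 and 9.50 in controls, and did not pass (log2 0.50, 95% interval -0.09 to 1.09, adjusted p = 0.202). The 3 D cyclins together were at 15.7 ± 1.04 FPKM in APAP livers, against 17.4 ± 4.17 in controls. Ccnd3 made up 77 ± 0.972% of that sum in APAP livers, against 55.3 ± 12.9% in controls, and Ccnd1 12.3 ± 1% and 29.7 ± 9.6%. Each APAP library was above each control for the Ccnd3 share and below each control for the Ccnd1 share, which is a description of sums that include the tested Ccnd1.

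The E cyclins, partners of CDK2 at the start of S phase, had estimates near 0 for APAP against control. Ccne1 was at 0.546, 0.594 and 0.926 FPKM in APAP livers, against 0.702, 0.569 and 0.946 in controls (log2 0.01, interval -0.54 to 0.56). Ccne2 was at 0.658, 0.560 and 0.779 FPKM in APAP livers, against 0.511, 0.830 and 0.843 in controls (log2 0.01, interval -0.47 to 0.49). Of the kinases, Cdk2 (log2 -0.14), Cdk4 (-0.21) and Cdk6 (-0.23) had estimates below 0 and none passed (adjusted p of 0.592, 0.203 and 0.465). Cdk4, a partner of the D cyclins, was at 9.80, 7.73 and 8.29 FPKM in APAP livers, against 10.9, 9.97 and 11.4 in controls. Cdk4 overlaps Tspan31, a gene of the opposite strand at 123.9 FPKM over the 9 libraries, by 641 bases. The Cdk4 values are therefore uncertain in the same way as those of Ccnd1.

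Neither of the kinase inhibitors among the 35 genes passed. Cdkn1b, which encodes p27, was at 6.62, 5.38 and 7.47 FPKM in APAP livers, against 9.37, 7.53 and 10.01 in controls (log2 -0.34, adjusted p = 0.207). Cdkn2c, which encodes the CDK4 and CDK6 inhibitor p18, was at 1.77 ± 0.484 FPKM in APAP livers, against 2.47 ± 0.356 in controls (log2 -0.37, adjusted p = 0.268). Of the pocket proteins, Rbl2 was at 8.18, 9.24 and 10.3 FPKM in APAP livers, against 13.6, 14.1 and 13.2 in controls. All APAP libraries lay below the controls for Rbl2, yet it missed the threshold (log2 -0.44, SE 0.144, adjusted p = 0.0575) and passed on deposited FPKM without rescaling (log2 -0.56, adjusted p = 0.0245) and with only the 2 groups fitted (0.0413). Rbl2 overlaps Aktip on the opposite strand by 12061 bases. Rb1, the retinoblastoma gene, was at 4.19 ± 0.538 FPKM in APAP livers, against 3.88 ± 0.384 in controls (adjusted p = 0.224).

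E2f1, an activator of replication genes, rose in APAP livers, to 0.976, 0.677 and 0.966 FPKM against 0.286, 0.538 and 0.608 in controls. All APAP libraries were above all controls, and the fold was 1.85 (log2 0.88, SE 0.244, limma adjusted p = 0.0327). The call was lost without APAP replicate 1 or 3 or control replicate 1 or 2 (adjusted p of 0.0992, 0.0963, 0.0834 and 0.0522), on deposited FPKM without rescaling (0.0517) and with only the 2 groups fitted (0.0715). E2f1 lies 15866 bases downstream of Pxmp4 on the same strand. Pxmp4 was at 40.9 FPKM by mean in dmPGE2+APAP livers, 45.0 in APAP livers, against 31.0 in controls. Its log2 difference for APAP against control was 0.655 (limma adjusted p = 0.0201). The part of Pxmp4 transcription in the E2f1 values was not tested. E2f3, another activator, was at 2.55 ± 0.324 FPKM in APAP livers, against 2.79 ± 0.509 in controls (log2 0.00, interval -0.37 to 0.37).

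The MCM helicase is a ring of 6 related subunits, and 1 of its 6 genes passed; whether it differed from the others was not tested. Mcm5 (chromosome 8, from 75109569 to 75128439) was at 0.619, 0.602 and 0.411 FPKM in dmPGE2+APAP livers, 0.965, 0.665 and 1.74 in APAP livers, against 0.0956, 0.249 and 0.387 in controls. All APAP libraries were above all others, and all controls were below all others. The fold for APAP against control was 3.8 (log2 1.92, SE 0.383, limma adjusted p = 0.0087). No control reached 0.5 FPKM, so Mcm5 entered the test through its treated libraries. The added 0.1 FPKM shrinks its fold, and the log2 value was 2.36 with 0.01 added and 0.78 with 1 added, where that of E2f1 was 1.02 and 0.39.

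The other 5 subunits had estimates between 0.01 and 0.15 on the log2 scale and none passed. Mcm2 was at 0.536 ± 0.133 FPKM in APAP livers, against 0.569 ± 0.0321 in controls (interval -0.45 to 0.46), and Mcm3 at 1.15 ± 0.163 and 1.12 ± 0.182 FPKM (interval -0.35 to 0.65). Mcm4 was at 0.842 ± 0.122 FPKM in APAP livers, against 0.844 ± 0.101 in controls, and Mcm7 at 3.1 ± 0.229 and 3.35 ± 0.434 FPKM. Mcm6 was at 1.09, 0.678 and 1.34 FPKM in APAP livers, against 0.762, 0.707 and 1.99 in controls, with control replicate 3 the highest library. Their sum without Mcm5 was 6.66 ± 0.112 FPKM in APAP livers, against 7.03 ± 1.25 in controls.

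Mcm5 lies 8980 bases downstream of Hmox1, the inducible haem oxygenase gene, on the same strand. Hmox1 was at 215, 255 and 156 FPKM in dmPGE2+APAP livers, 344, 251 and 314 in APAP livers, against 12.3, 10.7 and 7.60 in controls (log2 5.01 for APAP against control, limma adjusted p = 7.28e-06). Both genes were highest by group mean in APAP livers, intermediate in dmPGE2+APAP livers and lowest in controls. Within APAP livers both were lowest in replicate 2, with Hmox1 highest in replicate 1 and Mcm5 in replicate 3. Within dmPGE2+APAP livers both were lowest in replicate 3, with Hmox1 highest in replicate 2 and Mcm5 in replicate 1. Within controls Hmox1 was highest in replicate 1 and Mcm5 in replicate 3. The part of Hmox1 transcription in the Mcm5 values was not tested.

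**Figure D2:**
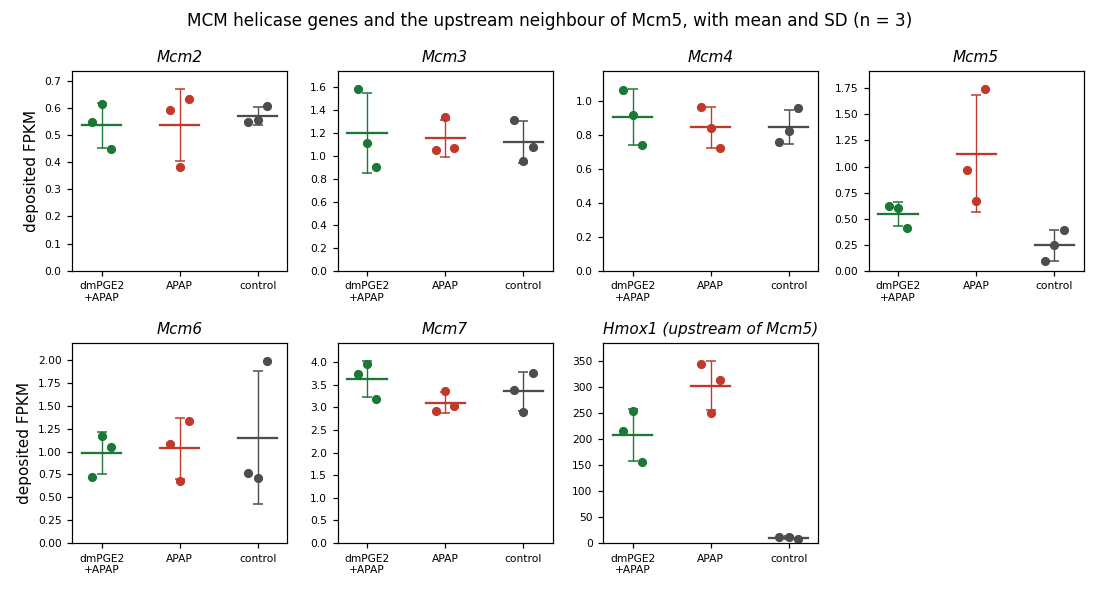
Deposited FPKM per library of the 6 MCM helicase genes and of Hmox1, the upstream neighbour of Mcm5, with the mean and SD of 3 libraries in each panel. Mcm5 is the single MCM gene whose APAP libraries lie above all controls, and Hmox1 has the same order of group means.

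Promoters were available from RefSeq (GRCm38.p6) for 28 of the 35 genes. They are shown because the MCM and E2F genes are textbook E2F targets, for 3 genes that passed in APAP livers and for Mcm6, which did not. Each runs from 250 bases before to 50 after a gene start, 5′ to 3′, with matches to the E2F motif in capitals (TTTCCCGC, TTTCGCGC, TTTGCCGC or TTTGGCGC, on either strand): Mcm5 at chr8:75109259-75109558 (plus strand), Mcm6 at chr1:128359656-128359955 (minus strand), Pcna at chr2:132253131-132253430 (minus strand), Blm at chr7:80534949-80535248 (minus strand). Those of Mcm5 and Mcm6 hold overlapping matches, and these windows of Pcna and Blm hold none.
Mcm5 promoter: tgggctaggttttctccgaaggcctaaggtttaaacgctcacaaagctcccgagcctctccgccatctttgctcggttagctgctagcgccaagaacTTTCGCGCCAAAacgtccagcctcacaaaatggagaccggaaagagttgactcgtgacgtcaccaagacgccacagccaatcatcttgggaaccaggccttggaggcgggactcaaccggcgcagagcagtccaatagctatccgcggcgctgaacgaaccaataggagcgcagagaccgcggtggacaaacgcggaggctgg
Mcm6 promoter: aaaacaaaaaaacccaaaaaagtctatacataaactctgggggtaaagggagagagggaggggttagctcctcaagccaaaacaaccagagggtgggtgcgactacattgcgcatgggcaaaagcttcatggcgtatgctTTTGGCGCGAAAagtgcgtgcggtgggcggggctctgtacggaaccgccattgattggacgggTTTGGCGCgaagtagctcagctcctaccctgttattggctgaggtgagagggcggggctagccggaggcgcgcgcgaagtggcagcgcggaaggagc
Pcna promoter: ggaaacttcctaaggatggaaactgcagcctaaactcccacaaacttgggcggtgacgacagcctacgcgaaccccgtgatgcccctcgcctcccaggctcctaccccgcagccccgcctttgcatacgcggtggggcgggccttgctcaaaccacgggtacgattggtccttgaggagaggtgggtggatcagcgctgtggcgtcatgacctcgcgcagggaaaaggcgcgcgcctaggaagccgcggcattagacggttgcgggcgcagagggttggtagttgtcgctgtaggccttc
Blm promoter: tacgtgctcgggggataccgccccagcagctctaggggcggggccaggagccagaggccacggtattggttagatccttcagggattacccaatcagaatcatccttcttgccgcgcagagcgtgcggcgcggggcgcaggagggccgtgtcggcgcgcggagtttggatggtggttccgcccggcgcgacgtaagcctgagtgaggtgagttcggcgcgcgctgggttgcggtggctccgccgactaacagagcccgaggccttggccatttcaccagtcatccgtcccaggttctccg

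The E2F motif was in a promoter of 9 of the 28 genes (32.1%) and in 2.26% of all 32851 promoters of the table. Some of the 28 genes had 2 windows, and a gene was counted if either held the motif. The background counts single promoters, so the 2 shares are not fully alike, and this holds for the other motifs below. For 6 of the 28 genes, E2f1 among them, every window lay inside the gene as the deposited table places it, so those windows may not cover the start used there. Mcm6, with 3 matches, and Mcm3, with 2, did not pass in the APAP comparison. CCAAT, also common at cell cycle promoters, was in 20 of the 28 (71.4%, against 37.4% of all promoters), and TTTGAA, the cell cycle homology region of late cell cycle genes, in 8 (28.6%, against 17.9%), both strands searched. The 8 were Ccnb2, Cdk1, Mki67, Top2a and Cdc20, which were too low to be tested, and E2f3, Mcm2 and Rbl2, which were tested. The windows of Ccnb1 and Cdc6, also too low to be tested, held no TTTGAA.

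Of the licensing genes, Gmnn, which encodes geminin, the inhibitor of the licensing factor CDT1 (chromosome 13, from 24751845 to 24761923), fell to 1.57, 2.35 and 1.63 FPKM in APAP livers, against 3.22, 3.49 and 3.61 in controls. Every APAP library was below every control (fold 0.588, log2 -0.77, SE 0.186, limma adjusted p = 0.0198). The call was lost without APAP replicate 1 or 3 or control replicate 2 (adjusted p of 0.0679, 0.0701 and 0.0595). Cdt1 itself was at 1.18, 0.648 and 1.22 FPKM in APAP livers, against 1.26, 1.12 and 1.26 in controls (log2 -0.17, interval -0.81 to 0.47). The ratio of Cdt1 to Gmnn FPKM was 0.752, 0.276 and 0.749 in APAP livers, against 0.389, 0.321 and 0.350 in controls, and the groups overlapped.

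At the replication fork, Pcna (chromosome 2, from 132249162 to 132253314) rose in APAP livers, to 16.7, 16.6 and 16.3 FPKM against 12.7, 12.1 and 13.2 in controls. The APAP libraries lay above all controls with little spread (fold 1.41, log2 0.50, SE 0.0825, limma adjusted p = 0.00382), and the call held in every alternative tried, including each left-out library. Pcna is also a known p53 target. Rrm2, the small subunit of ribonucleotide reductase, was at 3.08 ± 0.274 FPKM in APAP livers, against 2.69 ± 0.781 in controls (adjusted p = 0.312), and its partner Rrm1 at 1.88 ± 0.24 and 2.37 ± 0.362 (adjusted p = 0.349). Tyms, the thymidylate synthase gene, was at 1.11, 1.00 and 0.884 FPKM in APAP livers, against 1.75, 1.21 and 1.55 in controls, with no overlap and an adjusted p of 0.0996 (0.0425 without rescaling).

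Blm, the helicase mutated in Bloom syndrome that resolves recombination intermediates (chromosome 7, from 80454733 to 80535119), fell in APAP livers. It was at 1.37, 1.35 and 1.73 FPKM in dmPGE2+APAP livers, 0.803, 0.648 and 0.727 in APAP livers, against 1.32, 1.32 and 1.36 in controls. The 3 APAP libraries were the lowest of the 9. The fold for APAP against control was 0.62 (log2 -0.69, SE 0.145, limma adjusted p = 0.0107), and the call held in every alternative tried, with a log2 value of -0.37 where 1 FPKM was added in place of 0.1.

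**Figure D3:**
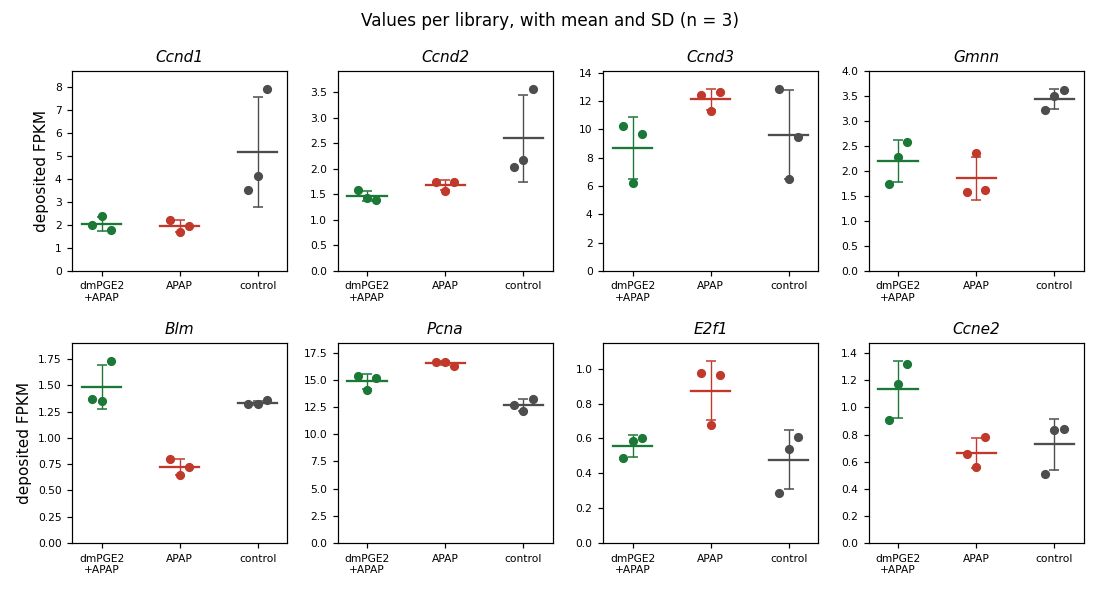
Deposited FPKM per library of 8 genes in dmPGE2+APAP, APAP and control livers, with the mean and SD of 3 libraries. Ccnd1 and Gmnn are lowest in the treated livers, Pcna and E2f1 highest in APAP livers, Blm lowest in APAP livers and Ccne2 highest in dmPGE2+APAP livers.

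The second comparison, dmPGE2+APAP against APAP livers, asks what the prostaglandin analogue given beforehand changed. In limma 0 of 11557 genes passed (0%), and so 0 of the 27. The unadjusted p was under 0.05 for 1077 genes (9.32%), and for 2 of the 27, Blm and Ccne2. The median log2 difference was -0.0333 over the 27 and 0.00986 over all genes tested. Blm was at 1.48 ± 0.213 FPKM in dmPGE2+APAP livers and 0.726 ± 0.0771 in APAP livers (fold 1.93, log2 0.95, interval 0.62 to 1.28, unadjusted p = 9.9e-05, adjusted p = 0.179). All 3 dmPGE2+APAP libraries were above all APAP libraries. The APAP libraries are shared with the first comparison, so the lower value against control and this difference are not independent. Against controls, the dmPGE2+APAP livers had a Blm log2 difference of 0.26 (interval -0.07 to 0.59, adjusted p = 0.254).

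Ccne2, which encodes the second E cyclin (chromosome 4, from 11191351 to 11204779), was at 0.907, 1.17 and 1.32 FPKM in dmPGE2+APAP livers, against 0.658, 0.560 and 0.779 in APAP livers. All 3 were above every APAP and every control library, and the difference did not pass (fold 1.62, log2 0.70, interval 0.22 to 1.18, unadjusted p = 0.00956, adjusted p = 0.387). The gene overlaps Ints8 on the opposite strand by 5622 bases. It also lies 16972 bases downstream of Trp53inp1 on the same strand. Trp53inp1 was at 121.5 FPKM by mean in dmPGE2+APAP livers, 119.3 in APAP livers, against 19.4 in controls. The part of Trp53inp1 transcription in the Ccne2 values was not tested. Groups did not overlap for 6 of the 27 genes, and for 16.3% of all genes tested. Besides Blm and Ccne2 these were Ccnd3, E2f1, Mcm5 and Pcna, all lower in dmPGE2+APAP livers.

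For these 4 genes the size was uncertain. E2f1 was at 0.485, 0.587 and 0.602 FPKM in dmPGE2+APAP livers and 0.976, 0.677 and 0.966 in APAP livers (log2 -0.54, interval -1.09 to 0.01, adjusted p = 0.544). Mcm5 had a log2 difference of -0.84 (interval -1.70 to 0.03), Ccnd3 of -0.49 (interval -1.08 to 0.10) and Pcna of -0.14 (interval -0.32 to 0.05). Ccnd1, with a log2 difference of 0.09, could differ by -0.48 to 0.65 within its interval.

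**Figure D4:**
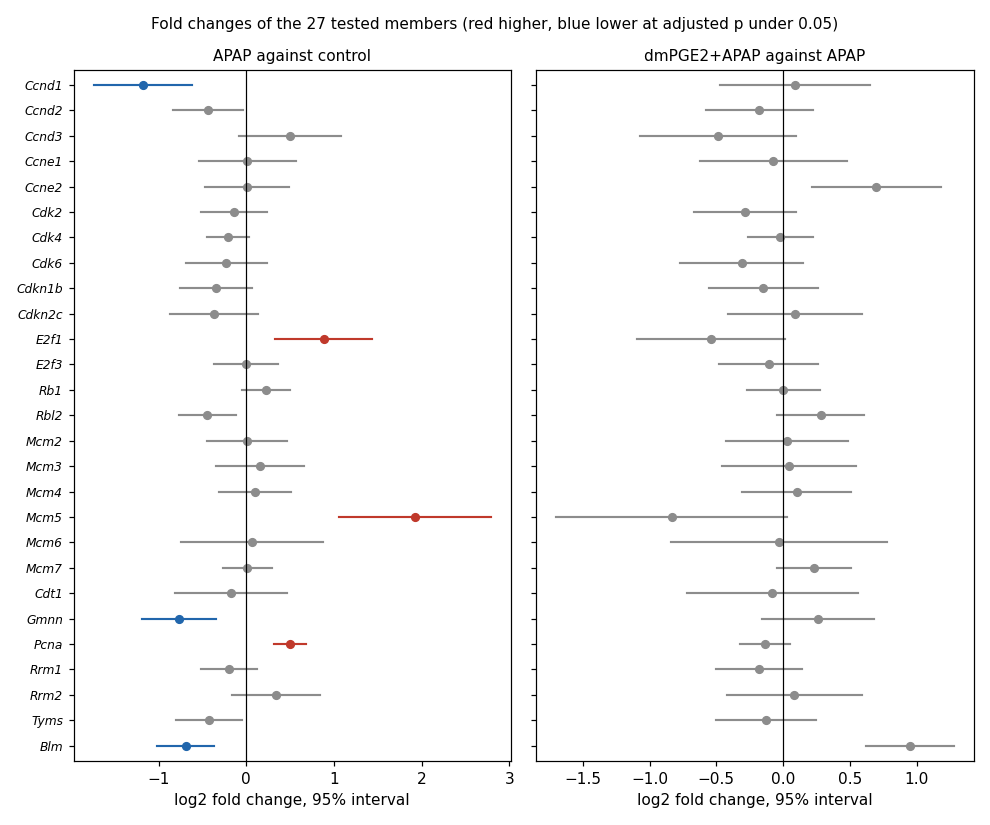
Log2 fold changes of the 27 tested genes with their 95% intervals for APAP against control (left) and dmPGE2+APAP against APAP (right), genes ordered by role from the top. On the left Mcm5, E2f1 and Pcna are higher and Ccnd1, Gmnn and Blm lower at the threshold, and on the right none passes, with Blm and Ccne2 having intervals above 0.

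In dmPGE2+APAP livers against the same controls, 3 of the 27 genes passed (11.1%, against 16.3% of all genes tested), 1 higher (8.62% of all) and 2 lower (7.72% of all). Without rescaling 7 passed, all lower, and over all genes 714 passed as higher and 1792 as lower, against 996 and 892 with it. The unadjusted p was under 0.05 for 11 of the 27 (31.4% of all genes tested), and the groups did not overlap for 13 (37.9% of all). The median log2 difference was -0.0631 over the 27 and -0.00508 over all genes tested. Pcna was higher (15.4, 14.1 and 15.1 FPKM against 12.7, 12.1 and 13.2 in controls, fold 1.29, limma adjusted p = 0.0183). This call was lost without dmPGE2+APAP replicate 1 or 3 or control replicate 2 (adjusted p of 0.0614, 0.0682 and 0.0621) and without rescaling (0.0615). Ccnd1 was lower (fold 0.47, log2 -1.09, SE 0.25, adjusted p = 0.0192), a call lost without dmPGE2+APAP replicate 1 or 3 (adjusted p of 0.052 and 0.0672).

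Ccnd2 was at 1.58, 1.42 and 1.39 FPKM in dmPGE2+APAP livers and 2.04, 2.17 and 3.56 in controls, below every control (fold 0.654, log2 -0.61, limma adjusted p = 0.047). Its call was lost without any one of the 3 dmPGE2+APAP libraries or control replicate 2 or 3, without the filter, with 1 FPKM added, with the replicate block and with only the 2 groups fitted (adjusted p from 0.0529 to 0.134), and its log2 value was -0.40 without control replicate 3. E2f1 (log2 0.34, adjusted p = 0.377), Mcm5 (1.09, adjusted p = 0.087), Gmnn (-0.51, adjusted p = 0.0982, and 0.0385 without rescaling) and Blm, which passed in APAP livers, did not pass here. Cdk2, Cdk4 and Cdk6 lay below every control in each dmPGE2+APAP library and did not pass (adjusted p of 0.121, 0.187 and 0.108), though Cdk6 passed without rescaling (0.0477). Cdk6 was at 2.07, 2.0 and 1.79 FPKM in dmPGE2+APAP livers, against 2.50, 3.76 and 3.34 in controls. Ccne2 missed the threshold at an adjusted p of 0.0528 (fold 1.63), and passed with 1 FPKM added (0.0439). Tyms missed it at 0.0516 (fold 0.682) and passed without rescaling (0.0212) and without control replicate 2 (0.0451).

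Outside the 35 genes, other regulators of G1 were measured in the same libraries, and their link to the 35 genes was not tested. Of 27 such genes 21 were tested, and in APAP livers against control 5 rose and 1 fell (28.6% passed, median log2 0.0062), where over all genes 20.9% passed, 11.2% higher and 9.73% lower. Cdkn1a was at 125, 107 and 100.3 FPKM in dmPGE2+APAP livers, 107, 122 and 107 in APAP livers, against 2.53, 1.80 and 0.352 in controls, a 92-fold difference for APAP against control (log2 6.52, adjusted p = 0.000165, and log2 5.73 without control replicate 3). Its level was 7.17 ± 1.08 times the summed D cyclin FPKM in APAP livers, against 0.0981 ± 0.0704 times in controls. Myc, a growth-promoting transcription factor gene, was at 6.86 ± 1.46 FPKM in APAP livers, against 1.2 ± 0.682 in controls (6.23-fold, adjusted p = 0.00119). Ccng2, an unconventional cyclin linked to cell cycle arrest, was at 9.57 ± 1.25 FPKM in APAP livers, against 4.67 ± 1.47 in controls (2.27-fold, adjusted p = 0.00862). In dmPGE2+APAP livers against control 4 of the 21 rose and none fell (19%, against 16.3% of all genes), these 3 and E2f8, a repressor of the E2F family (2.08-fold, adjusted p = 0.00928). Whether the E2f8 call held with a library left out or in the other alternatives was not examined.

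Of 45 other replication genes 35 were tested, and in APAP livers 4 rose and 8 fell (34.3% passed, median log2 -0.269), where over all genes 20.9% passed, 11.2% higher and 9.73% lower. Mcm10, which helps activate the helicase, fell to 7.52, 9.70 and 5.86 FPKM, against 18.3, 18.03 and 24.5 in controls (fold 0.411, adjusted p = 0.00214). Gins1, a subunit of the active helicase, was at 0.336, 0.931 and 1.06 FPKM in APAP livers, against 1.96, 1.91 and 1.57 in controls (fold 0.456, adjusted p = 0.0398), which did not pass without control replicate 1 or 2, without the filter, with the replicate block or with only the 2 groups fitted (adjusted p from 0.0605 to 0.103). Hells, a chromatin remodeller, was at 0.617, 0.532 and 1.80 FPKM in APAP livers, against 0.309, 0.150 and 0.150 in controls (3.42-fold, adjusted p = 0.0201, and 0.0624 without control replicate 2). No Hells control reached 0.5 FPKM either, so this gene too was tested through its treated libraries. In dmPGE2+APAP livers against control 4 rose and 3 fell (20% passed, against 16.3% of all genes), with Chaf1b, a histone chaperone subunit for new DNA, at 1.16 ± 0.232 FPKM against 0.417 ± 0.227 (2.77-fold, adjusted p = 0.0292). The Chaf1b call was lost without any one of the 3 dmPGE2+APAP libraries or control replicate 2 or 3 and with the replicate block (adjusted p from 0.051 to 0.0975). In that comparison the calls of Hells and Mcm10 were at 3.11-fold (adjusted p = 0.0331) and 0.523 (adjusted p = 0.0111), and that of Hells was lost without control replicate 2 or 3 or any one dmPGE2+APAP library, without the filter and with 1 FPKM added (adjusted p from 0.0523 to 0.105).

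Of 38 other mitosis genes 24 were below 0.5 FPKM in every library and 11 were tested, of which 1 rose and 2 fell in APAP livers (27.3% passed, against 20.9% of all genes, median log2 -0.263). Anln, which encodes the cytokinesis scaffold anillin, was at 0.619, 1.06 and 0.905 FPKM in dmPGE2+APAP livers, 0.448, 0.653 and 0.744 in APAP livers, against 0.391, 0.275 and 0.2997 in controls. It was 1.79-fold higher in APAP livers than in controls (adjusted p = 0.0397), a call lost without APAP replicate 2 or 3 or any one control, without the filter, without rescaling, with 1 FPKM added, with the replicate block and with only the 2 groups fitted (adjusted p from 0.051 to 0.12), and 2.43-fold higher in dmPGE2+APAP livers (adjusted p = 0.00918). No Anln control reached 0.5 FPKM, so it entered the test through its treated libraries. The CDK-binding gene Cks1b (0.589 of control, adjusted p = 0.0312) and the centrosome kinase gene Nek2 (0.641 of control, adjusted p = 0.0262) fell in APAP livers. The Cks1b call was lost without APAP replicate 1 or 3 or control replicate 1 or 3, without the filter and with only the 2 groups fitted (adjusted p from 0.0502 to 0.0775). The Nek2 call was lost without any one APAP library or control replicate 1 or 2, with the replicate block and with only the 2 groups fitted (adjusted p from 0.0535 to 0.0907). In dmPGE2+APAP against APAP livers 0 genes of these 3 lists passed in limma, with 0, 5 and 1 at an unadjusted p under 0.05.

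**Figure D5:**
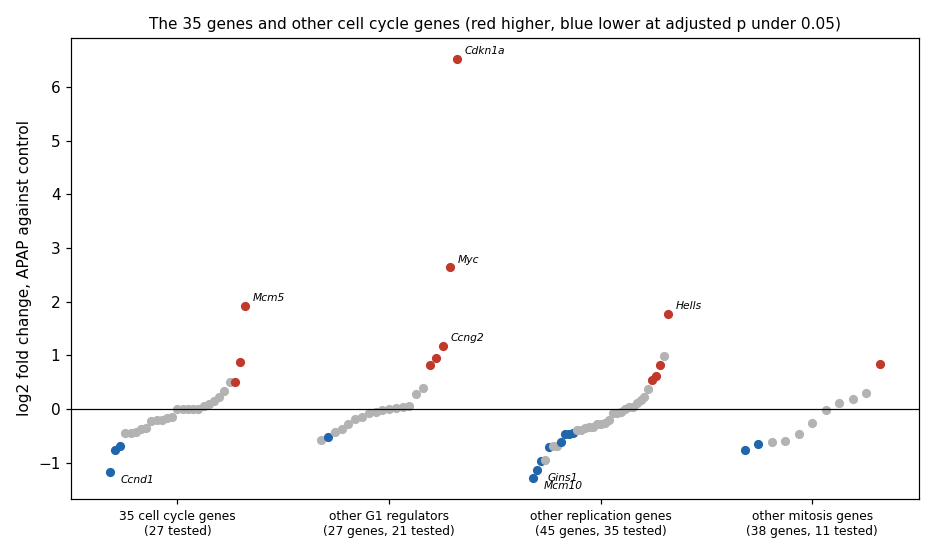
Log2 fold changes for APAP against control of the tested genes in 4 lists, sorted within each list, with genes at adjusted p under 0.05 in red (higher) and blue (lower). Cdkn1a, at 6.52, stands above all other genes plotted, and more of the other replication genes are blue (8) than red (4).

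Markers of other cells were measured in the same libraries. The summed level of 6 neutrophil markers was 4.99 to 10.9 FPKM in dmPGE2+APAP livers, 9.25 to 40.4 in APAP livers, against 2.38 to 6.63 in controls. The lymphocyte sum, with 4 of 6 markers below 0.5 FPKM in every library, was 0.563 to 1.03, 0.588 to 0.779 and 1.1 to 1.85 FPKM in the same order. The erythroid precursor sum was 45.8 to 56.6, 50.4 to 55.6 and 47.9 to 53.2 FPKM, and the Kupffer cell sum 86.7 to 91.2, 46.8 to 83 and 82 to 95.6 FPKM. Sums over 5 cholangiocyte markers were 20.8 to 32.4, 24.2 to 44.6 and 13.7 to 30.1 FPKM, over 5 stellate cell markers 116 to 133, 114 to 126 and 81.3 to 112 FPKM, and over 5 sinusoidal endothelial markers 73.4 to 75.4, 54.9 to 74.8 and 62.5 to 65.7 FPKM. Single APAP libraries set some of these ends. For neutrophil markers replicate 1 was at 40.4 FPKM, against 9.25 and 9.33 in replicates 2 and 3. Replicate 3 was at 46.8 FPKM for Kupffer cell markers (83 and 72.45 in replicates 1 and 2). It was at 54.9 for endothelial markers (74.8 and 70.3) and 44.6 for cholangiocyte markers (29.35 and 24.2). No marker was at 0 in all libraries, and the part of such cells in the cell cycle values was not tested.

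The lncRNA table holds 93 non-coding entries of 28 of the 35 genes, 68 annotated as retained introns and 25 as processed transcripts, and 45 of them reached the test. In APAP livers against control 2 passed in limma, both higher, where 3.66% of all 22984 tested entries did. With the minimum at 0.5 FPKM, 11 of the entries were tested and 2 passed, both lower. These were other entries, as neither of the 2 higher ones reached 0.5 FPKM in 3 libraries. The direction of the calls thus depended on the filter. Pcna-205, a retained intron form, was at 0.243, 0.281 and 0.338 FPKM in dmPGE2+APAP livers, 0.442, 0.462 and 0.687 in APAP livers, against 0.0728, 0.156 and 0.0951 in controls (2.97-fold for APAP against control, adjusted p = 0.0182). That call was lost without APAP replicate 1 or 3 or control replicate 1 or 3 (adjusted p from 0.0556 to 0.0633). Mcm5-204, also a retained intron form, was at 0.121, 0.0606 and 0.0372 FPKM in dmPGE2+APAP livers, 0.253, 0.143 and 0.457 in APAP livers, against 0, 0 and 0.00101 in controls (adjusted p = 0.0234). No control reached 0.1 FPKM, so the entry was tested through its treated libraries. Its call was lost without APAP replicate 1 or 3 or any one control and with the replicate block (adjusted p from 0.0546 to 0.0828). Both entries had the same order of groups as their genes. In the other 2 comparisons 0 of the 45 passed in limma, against 0% and 1.79% of all entries. The unadjusted p was under 0.05 for 7 in dmPGE2+APAP against APAP and 5 in dmPGE2+APAP against control. The share of all entries at that level was not computed, so these counts have no background to be read against.

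The Blm entries were among the 7. Blm-207, a processed transcript, was at 0.575, 0.328 and 0.651 FPKM in dmPGE2+APAP livers, 0.298, 0.175 and 0.214 in APAP livers, against 0.505, 0.563 and 0.713 in controls. Blm-203, a retained intron form, was at 0.239, 0.497 and 0.175 FPKM in dmPGE2+APAP livers, listed at 0, 0.00767 and 0 in APAP livers, and at 0.481, 0.0451 and 0.0598 in controls. For both entries the 3 APAP libraries were the lowest of the 9, and neither entry passed in any comparison (adjusted p of 0.0848 and 0.251 for APAP against control, and 0.642 and 0.522 for dmPGE2+APAP against APAP). Blm-203 reached 0.1 FPKM in no APAP library, so it was tested through the other groups. Both entries share the locus and the libraries of Blm, so they are not independent of the gene. These 2 entries were chosen after their values were seen.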

How the data were processed

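Liver RNA was sequenced in 9 libraries, 3 per group. The submitters' processing notes name HISAT2 and GRCm38 (mm10). The quantifier, annotation release and filters are not given in the sources used here. The authors deposited FPKM per gene (mRNA) and per transcript (lncRNA). The authors' further tables are titled as read counts, and their values are called scores here. Each lncRNA score of 1000 or more that the authors deposited equalled FPKM times genomic span times a constant per library within 1%. Of the mRNA scores of 1000 or more, only 0.91% to 1.21% per library did. The mRNA scores summed to 296.8 M to 399.3 M. How the authors made the mRNA scores before they were deposited is not given in the sources used here. Neither table of scores was tested, as neither was shown to hold counts, and no depth-based interval is given. The control columns carry a name the labels do not define and were assigned by elimination.

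FPKM were divided by a trimmed-mean library factor (30% trimmed by ratio, 5% by abundance), 0.1 was added and the log2 taken, so folds of genes near 0.1 FPKM are understated. Genes at 0.5 FPKM and entries at 0.1 FPKM in 3 libraries were fitted as 3 group means over all 9 libraries with limma 3.58.1 in R 4.3.3 (abundance trend, 6 residual degrees of freedom, two-sided, Benjamini-Hochberg at 0.05), a script tested on simulated data. An exact test of 3 against 3 cannot give a p under 0.1, and nothing says whether replicates were independent beyond their labels. The members and lists were chosen with earlier results of these data known. All 35 genes are accounted for; from the other lists the 3 largest called changes per comparison are named, with Cdkn1a and Myc, and also E2f8, chosen after its values were seen. Coordinates of 33 of the 35 genes equal those of GENCODE M21. Alternatives changed the added constant, filter, scaling, libraries fitted and left out, and a replicate block.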

Additional observations from a re-analysis of the deposited data

How the results depend on the processing

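For APAP against control, 4 to 7 genes passed in the 15 alternatives tried (27 tested, or 21 with a minimum of 1 FPKM and 35 with no filter), and in none did a called gene change sign. The calls of Ccnd1, Mcm5, Pcna and Blm held wherever the gene was tested. For dmPGE2+APAP against control 7 of the 27 passed on deposited FPKM without rescaling, and 0 to 3 with a library left out. Same-numbered libraries did not deviate together (correlations from -0.117 to 0.0715), so the numbers are not taken as pairs. With a replicate block 6, 0 and 2 of the 27 passed for APAP against control, dmPGE2+APAP against APAP and dmPGE2+APAP against control, and 2033, 0 and 1470 genes in all. For dmPGE2+APAP against APAP, 2 genes in all passed with only those groups fitted, and 0 to 50 with a library left out (50 without dmPGE2+APAP replicate 1). Leaving out a library gave 1520 to 2295 calls for APAP against control (1520 without APAP replicate 3) and 1024 to 1741 for dmPGE2+APAP against control (1024, 1151 and 1180 without dmPGE2+APAP replicate 2 or 3 or control replicate 2). Of the non-coding entries for APAP against control, 1 passed with the replicate block and 0 to 2 with a library left out. With entries filtered at 0.5 FPKM 2 other entries passed, both lower. The counting error of low FPKM, as in the 8 untested genes, is unknown.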
